A study of Mus musculus with 6 samples.

Results

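The genes described here are 9 genes of cortical intermediate progenitors, grouped around Eomes: Eomes, Insm1, Tbr1, Gadd45g, Rgs16, Penk, Sstr2, Igsf8 and Tmem158. They were chosen by name, with earlier results of these data known, and each matched 1 of the 32285 genes of the table. All 6 libraries came from wild-type mouse neocortex of stage E10.5, dissociated and cultured for about 24 h after inhibitor or solvent was added, and all are labelled as radial glial progenitors. The GSK group (3 libraries) received GSK2837808A, an inhibitor of lactate dehydrogenase, at a dose the labels give as 100 mM, which was not verified. The DMSO group (3 libraries) received the solvent alone. For each library about 1000 living cells that bound an antibody to CD133, the surface protein encoded by Prom1, were sorted and copied by Smart-seq2. Whether the replicates came from separate embryos or cultures is not stated, so p-values measure only how these samples vary, which may be technical variation.

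Intermediate progenitors are neurogenic cells that arise from radial glia, the stem cells lining the cerebral ventricle, and divide away from it to give pairs of neurons of the glutamatergic lineage. In the mouse cortex, cells pass from the radial glial transcription factor Pax6 to Eomes in intermediate progenitors and to Tbr1 in young neurons. Cajal-Retzius cells, which are among the earliest cortical neurons, also express Eomes and Tbr1, so neither gene marks a single cell type at this stage.

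The libraries held 7187089 to 10224348 reads, and 1 read was worth 0.859 to 1.14 normalised reads. The table gives normalised reads, that is, read counts divided by a factor per library, from which whole reads were recovered. All 12 radial glial markers examined were detected in each library. They summed to 13268 to 15946 normalised reads in GSK libraries and 25769 to 26556 in DMSO libraries. Vim alone gave 8061 to 10278 of these in GSK libraries and 10011 to 10255 in DMSO libraries. The 16 neuron markers summed to 22464 to 28021 in GSK libraries and 8417 to 16209 in DMSO libraries. The libraries were not pure, however: the summed level of 9 mesenchyme markers was 17288 to 26813 normalised reads in GSK libraries and 27392 to 34581 in DMSO libraries. Erythroid markers summed to 183923 to 274187 normalised reads in GSK libraries and 2397 to 20636 in DMSO libraries, and myeloid markers to 633 to 1499 in GSK libraries and 73.9 to 360 in DMSO libraries. Genes that overlap ribosomal RNA took 23.2 to 26.1% of the reads in GSK libraries and 20.2 to 21.6% in DMSO libraries.

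Of the 9 genes, 8 had a mean of at least 10 normalised reads over the libraries and were tested. Eomes, Insm1, Gadd45g, Rgs16, Penk and Sstr2 rose in GSK libraries, Tbr1 and Igsf8 did not pass, and Tmem158 was too low to test. The 6 called genes had log2 fold changes of 0.61 to 1.30, and none of the 8 was called lower (limma, with p adjusted by Benjamini-Hochberg over 15073 genes and a threshold of 0.05). Among all tested genes 17.0% were called higher and 19.1% lower. On the recovered reads edgeR called 7 of the 8 higher and none lower, where it called 16.6% of all genes higher and 19.9% lower. DESeq2 called 6 higher and none lower, with 15.9% and 18.1% of all genes. For 7 of the 8 genes every GSK value lay above every DMSO value, as it did for 22.8% of all tested genes; the opposite held for none of the 8 and for 24.4% of all tested genes. The median log2 fold change of the 8 was 1.01, against 0.01 over all tested genes. With libraries scaled to equal totals after erythroid and ribosomal-RNA-overlapping genes were set aside, an alternative chosen after seeing the data, 6 of the 8 were called higher and none lower. In bulk samples more cells of a type and more RNA per cell cannot be told apart.

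**Figure D1:**
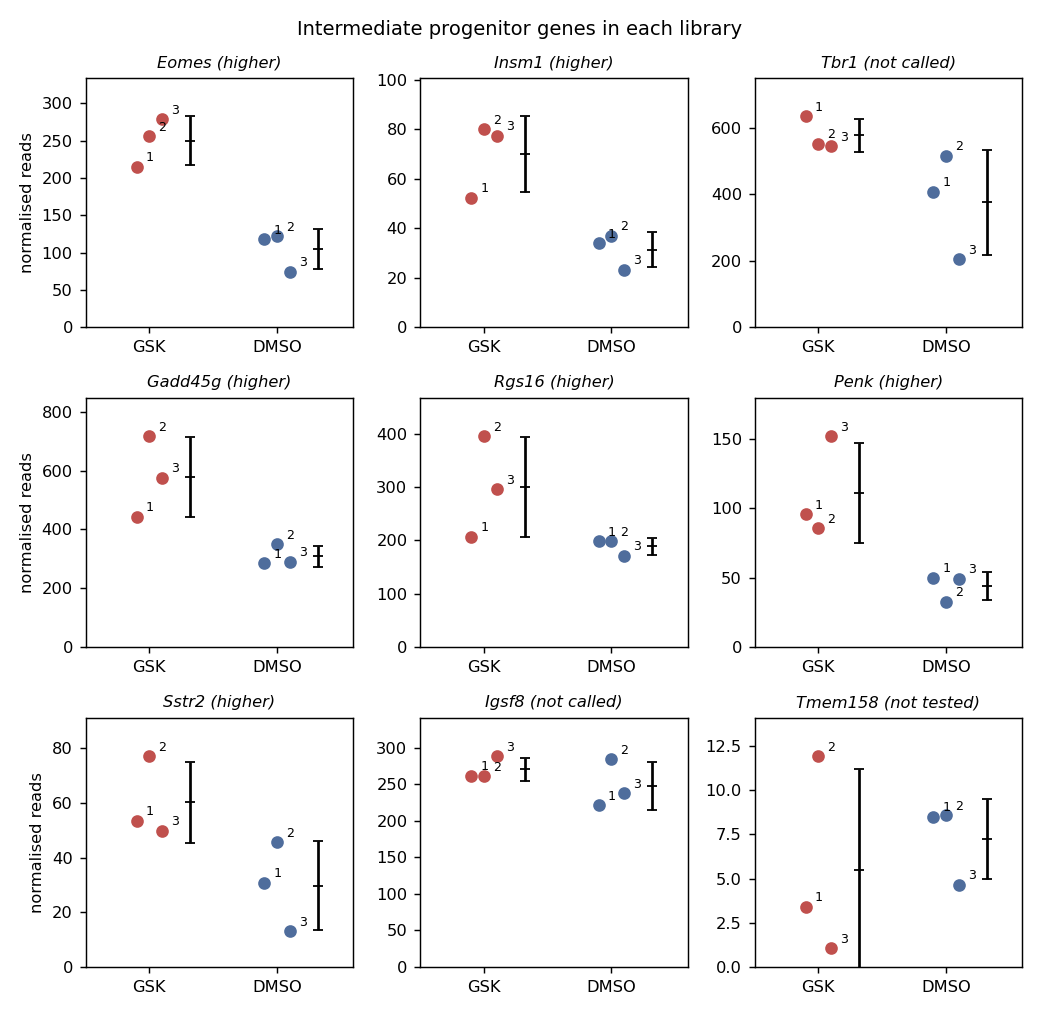
Normalised reads of the 9 genes in each library, with GSK libraries in red and DMSO libraries in blue. Digits are replicate numbers and the black bars give the mean ± SD (n = 3); the bar of Tmem158 in GSK runs below 0 and is cut there. Eomes, Insm1, Tbr1, Gadd45g, Rgs16, Penk and Sstr2 have all 3 GSK points above all 3 DMSO points, for Rgs16 and Tbr1 by a narrow gap.

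Eomes encodes a T-box transcription factor, also called TBR2 (chromosome 9, 118478212 to 118486132, GRCm38, plus strand). It is expressed in intermediate progenitors and, as stated above, in Cajal-Retzius cells. It had 215, 256 and 279 normalised reads in GSK libraries, against 118, 122 and 74.3 in DMSO libraries. The lowest GSK library was thus at 1.76 times the highest DMSO library. The means were 250.2 ± 32.4 in GSK and 105 ± 26.4 in DMSO (SD, n = 3 each), for which the log2 fold change was 1.27 and its standard error 0.19 (95% interval 0.88 to 1.67; limma adjusted p = 2.64e-05). Only 3.30% of tested genes had a larger log2 fold change. An RNA on the opposite strand, Gm33460, shares exon sequence with Eomes, and had 32.2 to 46.7 normalised reads in GSK libraries and 23.2 to 30.1 in DMSO libraries. The library method does not mark strand, so reads in the shared stretch cannot be assigned.

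Tbr1 encodes a related T-box factor of early glutamatergic neurons (chromosome 2, 61802930 to 61814114, plus strand). It had 634, 551 and 544 normalised reads in GSK libraries, against 408, 516 and 205 in DMSO libraries. The groups did not overlap, but DMSO replicate 3 stood far below the other DMSO libraries. With a log2 fold change of 0.71 and a standard error of 0.32, Tbr1 did not pass the test (95% interval -0.06 to 1.48; limma adjusted p = 0.137). Without DMSO replicate 3 the log2 fold change was 0.33 (adjusted p = 0.129), and without DMSO replicate 2 it was 0.99 and passed (adjusted p = 0.00326). It also passed with edgeR on the recovered reads (log2 fold change 0.60, adjusted p = 0.0429) and when genes of any level were kept (limma adjusted p = 9.51e-05). In that last fit the values and the log2 fold change of 0.71 were unchanged. Only the error estimated by limma and the adjustment differed, so it is not separate evidence. Tbr1 did not pass with DESeq2 (adjusted p = 0.21), array weights (adjusted p = 0.234) or TMM scaling (adjusted p = 0.11). In 13 of 17 alternatives Tbr1 stayed uncalled, with adjusted p from 9.51e-05 to 0.393 over all of them.

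Insm1 encodes a zinc-finger factor that promotes the formation of basally dividing progenitors in the mouse cortex (chromosome 2, 146221921 to 146225020, plus strand). It had 52.3, 79.9 and 77.5 normalised reads in GSK libraries, against 34.0, 36.9 and 23.2 in DMSO libraries. Every GSK library was above every DMSO library, and the Insm1 values rest on 206 reads in all for GSK and 100 for DMSO. The log2 fold change was 1.13 with a standard error of 0.26 (95% interval 0.59 to 1.68; limma adjusted p = 0.00195). Neurog2, the proneural gene that acts upstream of Eomes, did not pass, with 119 ± 15.1 normalised reads in GSK and 101 ± 22.2 in DMSO (log2 fold change 0.25, adjusted p = 0.322). Over the alternatives its log2 fold change was 0.15 to 0.43, the highest without DMSO replicate 1, and none passed.

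Gadd45g encodes a small protein of the growth arrest and DNA damage family that binds stress kinase regulators and cell cycle proteins (chromosome 13, 51846678 to 51848468, plus strand). Its values were 444, 717 and 576 normalised reads in GSK libraries, against 285, 351 and 291 in DMSO libraries. The lowest GSK library was 1.27 times the highest DMSO library, and the GSK libraries were more spread out than the DMSO libraries. The log2 fold change was 0.88 with a standard error of 0.16 (95% interval 0.55 to 1.22; limma adjusted p = 0.000228). Of its relatives, Gadd45a rose to 56.4 ± 4.15 normalised reads in GSK, against 29.1 ± 14.6 in DMSO (log2 fold change 1.06, adjusted p = 0.0139). Gadd45b had 93.7 ± 17.1 normalised reads in GSK and 86.9 ± 12.0 in DMSO and did not pass (log2 fold change 0.10, adjusted p = 0.725). Both relatives were chosen for mention after their values were seen.

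Promoter windows of RefSeq on GRCm38.p6, from 250 bases before to 50 bases after the annotated start, were found for 6 of the 9 genes: Eomes, Tbr1, Gadd45g, Rgs16, Sstr2 and Igsf8. Each was searched on both strands for the E-boxes CAGCTG and CAGATG, which proneural factors bind, and for AGGTGT, the core of the T-box half-site. The only match was 1 CAGCTG in the Gadd45g window, 55 bases before the start, a motif that reads the same on both strands. Among all 32851 windows, 16.3% held CAGCTG, 17.2% CAGATG and 13.7% AGGTGT. The windows of the pair of T-box genes and of Gadd45g are shown, 5′ to 3′ on the plus strand, with the match in capitals; they lie at chr9:118477939-118478238, chr2:61804203-61804502 and chr13:51846425-51846724. The RefSeq start of Tbr1 lies inside the span of the gene given above. A match is a string of letters, and its absence here says nothing of binding elsewhere.
Eomes: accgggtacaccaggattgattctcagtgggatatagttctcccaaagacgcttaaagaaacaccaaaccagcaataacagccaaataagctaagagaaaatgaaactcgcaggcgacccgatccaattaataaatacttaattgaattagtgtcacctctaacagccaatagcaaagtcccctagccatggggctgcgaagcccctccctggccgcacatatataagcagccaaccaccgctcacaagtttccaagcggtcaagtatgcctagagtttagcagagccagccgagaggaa
Tbr1: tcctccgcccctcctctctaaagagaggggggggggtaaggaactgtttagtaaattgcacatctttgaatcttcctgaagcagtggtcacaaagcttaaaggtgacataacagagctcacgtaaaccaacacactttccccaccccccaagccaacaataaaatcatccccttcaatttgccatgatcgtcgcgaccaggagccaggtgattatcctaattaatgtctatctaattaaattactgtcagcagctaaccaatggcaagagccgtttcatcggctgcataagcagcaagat
Gadd45g: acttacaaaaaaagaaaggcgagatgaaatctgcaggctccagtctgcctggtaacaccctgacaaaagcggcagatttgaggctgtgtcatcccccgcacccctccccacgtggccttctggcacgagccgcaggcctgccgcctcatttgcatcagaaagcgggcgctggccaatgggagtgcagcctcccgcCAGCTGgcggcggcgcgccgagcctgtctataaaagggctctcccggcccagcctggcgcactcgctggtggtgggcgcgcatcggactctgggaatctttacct

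The signalling genes of the group differed in how firmly they moved. Penk encodes the precursor of the enkephalin opioid peptides (chromosome 4, 4133531 to 4138819, minus strand). It had 95.6, 85.5 and 152 normalised reads in GSK libraries, against 49.9, 32.6 and 49.3 in DMSO libraries. All GSK libraries were higher, the lowest of them 1.71 times the highest DMSO library. With 1.30 on the log2 scale and a standard error of 0.24, Penk had the largest change of the 8 tested genes (95% interval 0.79 to 1.80, limma adjusted p = 0.000311). Eomes, at 1.27, was within that error, and the order was not stable. With a pseudocount of 10 Eomes stood at 1.20 and Penk at 1.14, and with array weights at 1.25 and 1.14. A830012C17Rik, on the opposite strand and sharing exon sequence with Penk, had 11.7 to 15.6 normalised reads in GSK libraries and 5.16 to 13.0 in DMSO libraries. Of the other opioid genes examined only Pomc was high enough to test, and it did not pass (log2 fold change 0.37, adjusted p = 0.518).

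Sstr2 encodes a receptor for the peptide somatostatin (chromosome 11, 113619342 to 113626028, plus strand). It had 53.5, 77.2 and 49.9 normalised reads in GSK libraries, against 30.8, 45.5 and 13.0 in DMSO libraries. The lowest GSK library was 1.10 times the highest DMSO library, and DMSO replicate 3 held 14 reads. The log2 fold change was 1.13 with a standard error of 0.36 (95% interval 0.36 to 1.89; limma adjusted p = 0.0222). The call was lost without DMSO replicate 3 (log2 fold change 0.64, adjusted p = 0.0936), GSK replicate 1 (1.20, adjusted p = 0.0518) or GSK replicate 2 (0.94, adjusted p = 0.0883). Sst, the gene of somatostatin, was listed at 0 in 5 libraries and had 1.72 normalised reads in DMSO replicate 2. Cort, from the list of relatives and partners described below, had 16.5 ± 5.46 normalised reads in GSK and 25.7 ± 4.26 in DMSO. It did not pass (log2 fold change -0.65, limma adjusted p = 0.157), and was chosen after its values were seen.

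Rgs16 encodes a protein that shortens the signal of G protein-coupled receptors (chromosome 1, 153740349 to 153745468, plus strand). It had 207, 395 and 296 normalised reads in GSK libraries, against 199, 198 and 171 in DMSO libraries. GSK replicate 1 was barely above the DMSO libraries, at 1.04 times the highest of them. Gm28513, on the opposite strand and sharing exon sequence, had 44.4 to 80.9 normalised reads in GSK libraries and 32.9 to 49.0 in DMSO libraries, and reads of this stretch cannot be assigned. The log2 fold change of Rgs16 was 0.61 with a standard error of 0.19 (95% interval 0.22 to 1.01; limma adjusted p = 0.0155). Without DMSO replicate 3 it was 0.54 (adjusted p = 0.063) and without GSK replicate 2 it was 0.39 (adjusted p = 0.149), and neither passed. Its relative Rgs2 rose by a log2 fold change of 0.75 (adjusted p = 0.001), and Rgs3 fell to 143 ± 14.6 normalised reads in GSK, against 243 ± 9.15 in DMSO (log2 fold change -0.76, adjusted p = 0.000595). Rgs2 was chosen after its values were seen.

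Igsf8 encodes a membrane protein of the immunoglobulin superfamily that binds the tetraspanins CD9 and CD81 (chromosome 1, 172261641 to 172319841, plus strand). It had 262, 261 and 289 normalised reads in GSK libraries, against 221, 284 and 238 in DMSO libraries. The groups overlapped, and a log2 fold change of 0.13 did not pass (standard error 0.15, 95% interval -0.18 to 0.44; limma adjusted p = 0.515). The binding partner gene Cd9 rose to 237 ± 33.8 normalised reads in GSK, against 118 ± 14.2 in DMSO (log2 fold change 1.00, adjusted p = 8.74e-05). Cd81 had 1760 ± 311 normalised reads in GSK and 1627 ± 37.6 in DMSO, with overlapping groups, and did not pass (log2 fold change 0.10, adjusted p = 0.612); it was chosen after its values were seen. Of the same protein family, Igsf3 rose by a log2 fold change of 0.66 (adjusted p = 0.000492) and Ptgfrn fell to 73.0 ± 2.82 normalised reads in GSK, against 207 ± 4.42 in DMSO (log2 fold change -1.49, adjusted p = 5.91e-07).

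Tmem158 encodes a membrane protein first described as induced by Ras signalling in human cells (chromosome 9, 123259053 to 123260764, minus strand). It had 3.41, 11.9 and 1.06 normalised reads in GSK libraries, against 8.50, 8.59 and 4.65 in DMSO libraries. The groups overlapped, and the values rest on 3, 13 and 1 reads in GSK libraries and 8, 10 and 5 in DMSO libraries. The coefficient of variation of Tmem158 was 105% in GSK and 31.1% in DMSO, where counting alone would give 42.0% in GSK and 36.1% in DMSO. When genes of any level were kept, its log2 fold change was -0.71 and did not pass (limma adjusted p = 0.507 over 29981 genes).

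**Figure D2:**
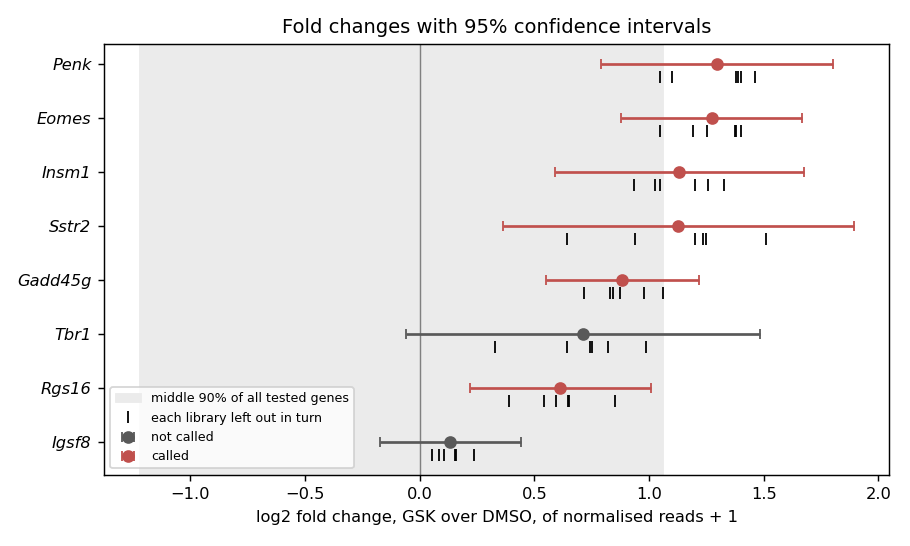
Log2 fold changes of GSK over DMSO with 95% confidence intervals for the 8 tested genes, called genes in red and genes not called in grey. Black ticks give the value with each library left out in turn and the grey band holds the middle 90% of all tested genes, from -1.22 to 1.06. Penk, Eomes, Insm1 and Sstr2 lie beyond the band, and the ticks of Tbr1 run from 0.33 to 0.99.

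The spread between replicates was not the same for all genes. In the DMSO group Tbr1 had a coefficient of variation of 41.9%, where counting error alone would give 4.99%. Sstr2 had 54.7% in the same group, with 17.7% from counting. In the GSK group Igsf8 varied by 5.83%, with 6.18% from counting, whereas Rgs16 varied by 31.4%, with 5.80% from counting. DMSO replicate 3 was the lowest DMSO library for 5 of the 8 tested genes, namely Eomes, Insm1, Tbr1, Rgs16 and Sstr2. In that library the summed level of 16 neuron markers was also lowest, at 8417 normalised reads, against 13640 and 16209 in the other DMSO libraries. The same held for 10 Cajal-Retzius markers, at 1223 against 2072 and 2218. That library also stood apart in lists of other cells. Erythroid markers summed to 2397 there, against 14708 and 20636, and myeloid markers to 360, against 136 and 73.9. Mesenchyme markers summed to 34581, against 27599 and 27392. Radial glial markers, at 26396 against 25769 and 26556, did not stand apart. What sets this library apart was not tested. Without DMSO replicate 3, 4 of the 8 genes were called higher, and without GSK replicate 2 also 4.

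Set per kilobase of annotated exon, Gadd45g was the most abundant of the 9 genes in both groups, at 494 ± 116 normalised reads per kb in GSK and 263 ± 31.0 in DMSO. It stood clear of the next gene, Rgs16, at 128 ± 40.2 normalised reads per kb in GSK and 81.0 ± 6.80 in DMSO. Tbr1 followed in both groups, at 105 ± 9.07 normalised reads per kb in GSK and 68.6 ± 28.7 in DMSO, with ranges that overlapped those of Rgs16. In GSK libraries the order went on with Penk, Eomes and Igsf8, at 67.9 ± 21.9, 60.2 ± 7.81 and 51.8 ± 3.02 normalised reads per kb. Penk overlapped Eomes and Eomes overlapped Igsf8, whereas Tbr1 was separate from Penk and Igsf8 from Sstr2. In DMSO libraries Igsf8 stood at 47.5 ± 6.30, above Penk at 26.9 ± 5.99 and Eomes at 25.2 ± 6.36 normalised reads per kb. The ranges of Igsf8 and Penk were separate there. Sstr2, Insm1 and Tmem158 closed the order in both groups, with 28.1 ± 6.92, 22.6 ± 4.92 and 3.20 ± 3.35 normalised reads per kb in GSK and 13.9 ± 7.60, 10.1 ± 2.33 and 4.23 ± 1.32 in DMSO. By this measure 62.3% of tested genes lay below Eomes in GSK libraries and 37.2% in DMSO libraries.

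Ratios within a library do not depend on how libraries are scaled. Relative to Pax6, which fell to 446 ± 33.3 normalised reads in GSK, against 1166 ± 100.0 in DMSO (log2 fold change -1.38, limma adjusted p = 5.7e-08), Eomes was higher in every GSK library. The log2 ratio of Eomes to Pax6 was -0.99, -0.92 and -0.60 in GSK libraries, against -3.31, -3.36 and -3.82 in DMSO libraries. The difference of 2.66 had an exact permutation p = 0.1 (two-sided), the smallest that 3 against 3 allows. Every GSK library had higher Eomes and lower Pax6 than every DMSO library. The p-value of their ratio was thereby fixed and adds no separate evidence. Prom1, the gene of the sort marker, fell to 591 ± 96.3 normalised reads in GSK, against 1183 ± 72.2 in DMSO (log2 fold change -1.01, limma adjusted p = 7.61e-06). The log2 ratio of Tbr1 to Eomes was 1.56, 1.10 and 0.96 in GSK libraries, against 1.78, 2.07 and 1.45 in DMSO libraries. These groups overlapped, and the difference of -0.56 had an exact permutation p = 0.2 (two-sided).

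Over the 6 libraries, the genes whose log2 values ran most like those of Eomes were Elavl4, Tango2, Tubb3, Nrxn3 and Stmn2, out of 10692 protein coding genes that averaged 50 normalised reads or more. Likeness was measured as the root mean square difference after the mean of each gene was subtracted, and was 0.05, 0.07, 0.09, 0.09 and 0.11 on the log2 scale for these genes in turn. Elavl4 encodes a neuronal RNA-binding protein, Tubb3 a neuronal tubulin and Stmn2 a neuronal microtubule regulator. Of the tested genes around Eomes, Insm1 was nearest at 0.13, with 15 of the 10692 genes nearer. Gadd45g followed at 0.32, with 369 genes nearer. Sstr2, Tbr1, Rgs16 and Penk were at 0.37, 0.38, 0.42 and 0.42, and Igsf8 at 0.62 with 3594 genes nearer. Eomes was at its lowest in DMSO replicate 3, and so were the 5 nearest genes. They were chosen by closeness over these same values, so this shared low point follows from the choice.

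**Figure D3:**
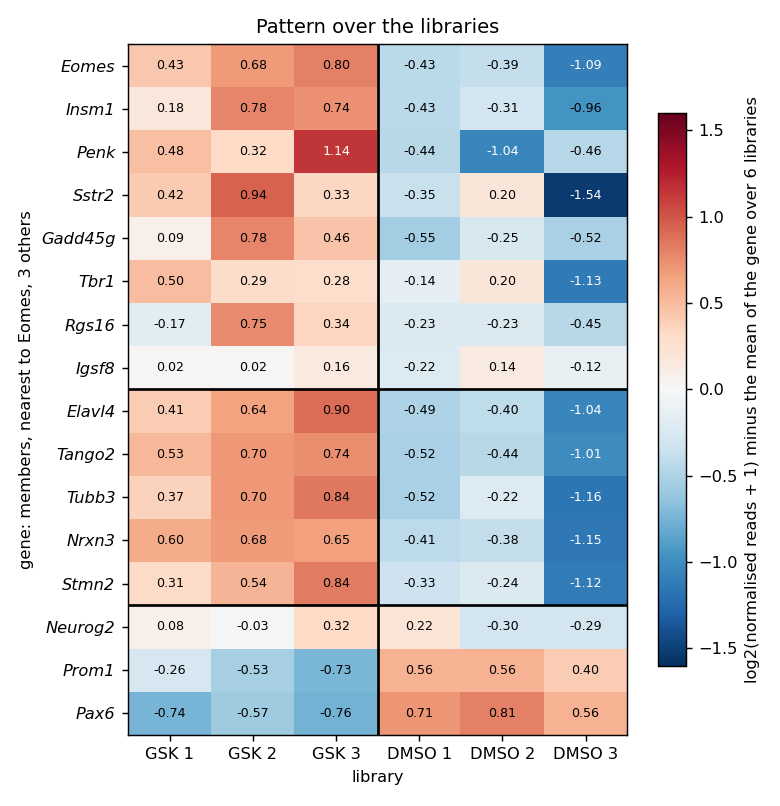
Log2 values of each gene in each library minus the mean of that gene over the 6 libraries, for the 8 tested genes (top), the 5 genes nearest to Eomes (middle) and Neurog2, Prom1 and Pax6 (bottom). Red is above the mean of the gene and blue below, and DMSO replicate 3 holds the lowest values of Eomes, Insm1, Sstr2 and Tbr1, from -1.54 to -0.96.

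Other genes linked to intermediate progenitors were called in both directions. Of 24 such genes, all of which were tested, 11 rose and 4 fell, with a median log2 fold change of 0.64. Among all tested genes 17.0% were called higher and 19.1% lower, so the share that fell was near that of all tested genes. Elavl4 rose to 1006 ± 171 normalised reads in GSK, against 413 ± 92.8 in DMSO, and the antiproliferative gene Btg2 to 971 ± 203, against 415 ± 69.4. The other genes that rose included Nhlh1 and Neurod4, which encode neuronal bHLH factors, the Notch ligand gene Dll1 and the bHLH gene Hes6, with log2 fold changes of 1.98, 2.47, 0.95 and 0.84. The 4 that fell were Heg1, Myo10, Unc5d and Kif26b. Heg1, which encodes a membrane protein of cell junctions, fell to 255 ± 35.4 normalised reads in GSK, against 626 ± 32.4 in DMSO, and Myo10, which encodes a myosin of filopodia, had a log2 fold change of -1.20. Unc5d, a netrin receptor gene, and Kif26b, a kinesin gene, had log2 fold changes of -0.95 and -0.36. Nhlh1, Neurod4, Dll1, Hes6, Unc5d and Kif26b were chosen after their values were seen. The count of 4 was 2 when DMSO replicate 1, 2 or 3 or GSK replicate 2 was left out. A list of 38 relatives and partners of the 9 genes held 19 that were tested. Of these, 6 rose and 2 fell, beside the same 17.0% and 19.1% of all tested genes, with a median log2 fold change of 0.10. Those that rose were Cd9, Igsf3, Rgs2, Gadd45a, Kdm1a and Gfi1b, and those that fell were Ptgfrn and Rgs3. Gfi1b, a factor of erythroid cells, had a log2 fold change of 4.24 and stood beside the erythroid markers given above; it and Kdm1a, a histone demethylase gene, were chosen after their values were seen.

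Markers of the cells before and after intermediate progenitors differed as well. Of 12 radial glial markers 11 fell and none rose (median log2 fold change -1.31). Beside this count and those of the lists below, 17.0% of all tested genes were called higher and 19.1% lower. Fabp7, Slc1a3 and Hes5 had log2 fold changes of -3.78, -3.21 and -1.96. Of 16 neuron markers 7 rose and 2 fell (median 0.85), among them Snap25, Nefl and Tubb3 with rises of 1.88, 1.70 and 1.27 on the log2 scale and Sox5 with -1.15. The other marker that fell was Neurod6, a bHLH gene of cortical glutamatergic neurons, with 19.0 ± 9.23 normalised reads in GSK and 94.7 ± 45.8 in DMSO (log2 fold change -2.20, limma adjusted p = 0.001). Slc17a7, a vesicular glutamate transporter gene, and Neurod2, another neuronal bHLH gene, had log2 fold changes of -1.53 and -0.15 and did not pass. These 3 genes were chosen after their values were seen. Summed, the 16 markers had 22464 to 28021 normalised reads in GSK libraries and 8417 to 16209 in DMSO libraries. Of 10 Cajal-Retzius markers 6 rose and 2 fell (median 1.25), with Trp73, Ebf3 and Lhx5 at log2 fold changes of 1.48, 1.33 and 1.32 and Calb2 at -0.95; 1 rather than 2 fell when DMSO replicate 2 or 3 or GSK replicate 2 or 3 was left out. Their sum was 3181 to 3483 normalised reads in GSK libraries and 1223 to 2218 in DMSO libraries, and the part of these cells in the levels of Eomes and Tbr1 was not tested.

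Of 10 markers of the ventral forebrain, whose neurons are GABAergic, 7 were tested and 6 rose (median 1.73), including Dlx1, Dlx5, Gad1 and Dlx2. Their sum was 482 to 553 normalised reads in GSK libraries and 180 to 232 in DMSO libraries, and Nkx2-1 was at 0 in every library. Among markers of cells outside the cortical lineage, 8 of 9 tested erythroid genes rose (median 4.45), including Alas2, Hbb-y and Klf1. That count was 3 without DMSO replicate 1 or GSK replicate 1 and 2 without GSK replicate 2 or GSK replicate 3. Of 10 myeloid genes 5 rose (median 3.81), including Ptprc, Lyz2, Aif1 and Csf1r, and 8 without DMSO replicate 3. Mesenchyme genes had a median of 0.03, with Col3a1 and Col1a1 lower among 9; 1 was lower without DMSO replicate 3 and 4 without GSK replicate 1. None of the 4 tested endothelial genes (Kdr and Esam had the smallest p) and none of the 2 tested peripheral neuron and neural crest genes, Pou4f1 among them, passed. All 8 endothelial genes summed to 63.7 to 85.3 normalised reads in GSK libraries and 65.9 to 88.3 in DMSO libraries, and all 8 peripheral genes to 63.7 to 71.7 in GSK libraries and 43.0 to 65.9 in DMSO libraries. What part these cells have in the values of the genes around Eomes was not tested.

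**Figure D4:**
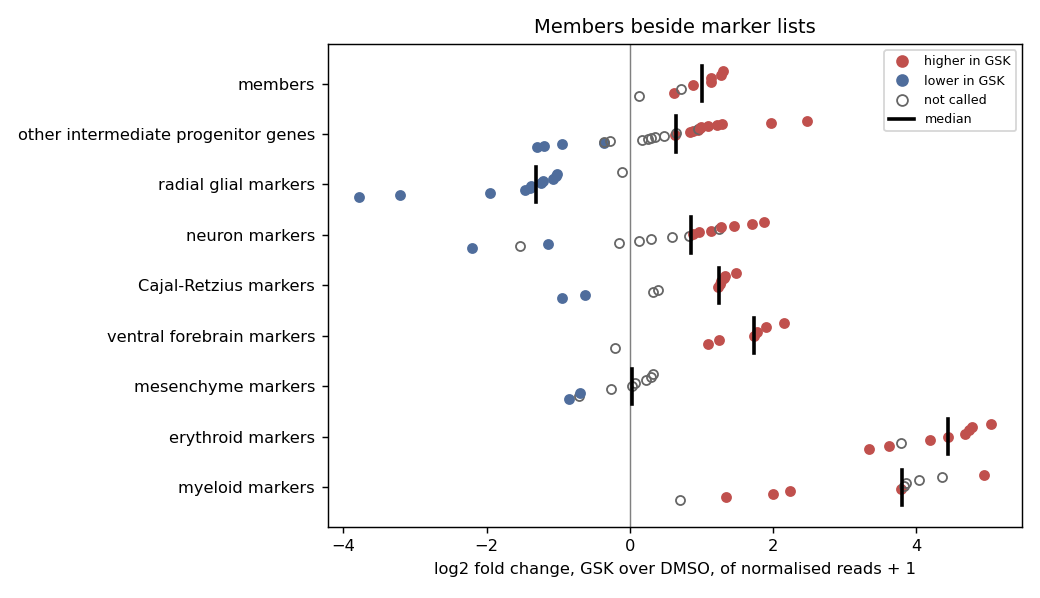
Log2 fold changes of GSK over DMSO for the tested genes around Eomes (top row, members) and for tested genes of 8 marker lists. Filled points are called higher (red) or lower (blue), open points are not called and black lines are medians; the median is 1.01 for the genes around Eomes, -1.31 for radial glial markers and 0.85 for neuron markers.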

How the data were processed

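Bulk RNA-seq was measured in 6 samples. The deposited signal values are normalised read counts from the authors, in 1 table; STAR, DESeq, GRCm38 and mm10 are named, without version or role, in the submitters' processing notes. The counter, annotation release and strand setting were not given in the sources used here. The table repeats each gene on its transcript rows (118098 rows); 1 row per gene was kept. In each library 100% of nonzero values were whole multiples of the value of 1 read within 0.01, so reads were recovered (7187089 to 10224348 per library). Replicates differed beyond sampling noise (chi-square over its degrees of freedom, 4.45 to 14.2).

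In R 4.3.3, limma 3.58.1 (trended, robust priors) was run on log2(value + 1) for 15073 genes with a mean of at least 10, with group as the only term; this scale understates changes of low genes. Adjustment was over all tested genes. On recovered reads, edgeR 4.0.16 called 2500 genes higher and DESeq2 1.42.0 called 2401. Alternatives were other pseudocounts, scalings and filters, weighted arrays, a block for replicate numbers and leaving out each library. Coordinates and exon lengths came from GENCODE vM21 on GRCm38.

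The genes and lists were chosen with earlier results of these data known. From each list, up to 4 called genes by smallest p were named, or up to 2 where fewer than 3 were called; all 9 genes, Pax6, Prom1, Neurog2, Ldha and the 5 genes nearest to Eomes were always to be named. Some items that this rule or the overlap of genes would name are not reported here. Ldha, which encodes a target of the inhibitor, had 1384 ± 301 normalised reads in GSK and 2339 ± 173 in DMSO. It was called lower (log2 fold change -0.78, limma adjusted p = 0.000424).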

Additional observations from a re-analysis of the deposited data

How the results depend on the processing

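Of the 8 tested genes around Eomes, no fold change turned its sign under any setting run. Eomes, Gadd45g, Insm1 and Penk kept their calls in every setting that tested them, with log2 fold changes of 1.05 to 1.40, 0.72 to 1.11, 0.94 to 1.33 and 1.05 to 1.46. Igsf8 never passed (0.05 to 0.24). With each library left out, 4 to 7 of the genes were called higher and none lower, against 6 and none with all libraries. With a mean of at least 100, which leaves fewer genes to test, 3 were called higher. The samples share replicate numbers but are not shown to be pairs: deviations of same-numbered samples correlated at 0.013, -0.024 and 0.053 across genes, which are not independent, and GSK replicate 1 correlated more with DMSO replicate 2, at 0.072. With the replicate block 7 were called, Tbr1 being added (adjusted p = 0.015), the log2 ratios differed by 2.66 and -0.56 as before, 2 erythroid markers were called, and over all genes 2662 were called higher and 2980 lower.

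Over all genes, array weights called 3963 genes higher, against 2563, and leaving out a library 1748 to 3071 higher and 2246 to 3227 lower. The log2 ratio of Eomes to Pax6 differed by 2.50 to 2.75 and that of Tbr1 to Eomes by -0.74 to -0.41 with each library left out. Leaving out a library gave 2 to 4 other intermediate progenitor genes lower, 1 to 2 Cajal-Retzius markers lower, 1 to 4 mesenchyme markers lower, 2 to 9 erythroid markers higher and 4 to 8 myeloid markers higher. No filter gave 2 other intermediate progenitor genes and 1 Cajal-Retzius marker lower, and 1 peripheral neuron marker and 5 erythroid markers higher. A mean of at least 100 gave 1 neuron and 1 Cajal-Retzius marker lower, and 0 ventral and 1 myeloid marker higher. Equal library totals gave 4 relatives and partners, 1 mesenchyme and 1 endothelial marker lower. A pseudocount of 10 gave 1 endothelial marker lower. Array weights gave 4 relatives and partners and 4 mesenchyme markers lower, and 1 mesenchyme and 9 myeloid markers higher. edgeR gave 9 myeloid markers higher and DESeq2 0 mesenchyme markers lower. Equal totals without erythroid and ribosomal-RNA-overlapping genes, chosen after seeing the data, gave 0 mesenchyme markers lower. The causes were not tested. The values of Tmem158 rest on 17 reads in GSK and 23 in DMSO.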
